A study of Mus musculus with 2 samples.

Results

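The kappa variable genes, named Igkv, are the gene segments that give the kappa light chain of an antibody its variable part. All 160 genes whose symbol begins with Igkv were taken from the 32228 genes of the deposited tables, whatever their level. Their use was read from a pair of 10× Genomics 3′ single-cell libraries of live (7-AAD-) CD45+ cells of the colonic lamina propria. The library labelled WT came from 5 pooled wild type C57BL/6 mice and the library labelled Ring1AKO from 5 pooled mice of the same strain lacking Ring1a in the whole body. The labels give an age of 8 to 10 weeks for all mice, and both groups had taken dextran sodium sulfate (DSS), which injures the colonic epithelium, in their drinking water. With 1 library per group there was no replicate, so genotype and library cannot be told apart, none of the differences was tested, and the mouse of each cell is not known. The deposited counts summed to 74414511 unique molecular identifiers (UMIs) for WT and 81862096 for Ring1AKO.

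In a developing B cell of the bone marrow, recombination joins 1 Igkv gene to a J segment upstream of Igkc, the kappa constant gene, and allelic exclusion usually leaves each cell with a single expressed light chain. The choice is inherited by every plasma cell of the clone, so the Igkv gene that a plasma cell transcribes marks its clonal origin in part. Plasma cells of the intestinal lamina propria secrete mainly IgA and carry far more immunoglobulin mRNA than B cells do.

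The Igkv genes lie on chromosome 6 of the mouse genome (GRCm38, GENCODE vM21), at 22.3 to 3170 kb from Igkc (chr6:70726435-70726966). All 160 gene identifiers matched the annotation, which lists 100 as functional genes and 60 as pseudogenes. The sequences below are the germline ends of the 7 Igkv genes that the plasma cell results turn on. Each runs to the last coding base of the gene, and the capitals mark the bases after the conserved cysteine codon, which encode the start of the third complementarity-determining region, a part of the light chain that contacts antigen.
Igkv6-20: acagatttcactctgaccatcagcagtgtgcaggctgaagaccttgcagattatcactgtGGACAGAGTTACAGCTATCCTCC
Igkv6-23: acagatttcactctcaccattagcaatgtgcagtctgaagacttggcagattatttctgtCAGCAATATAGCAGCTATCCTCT
Igkv4-70: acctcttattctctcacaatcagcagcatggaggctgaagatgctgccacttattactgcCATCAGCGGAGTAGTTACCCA
Igkv1-110: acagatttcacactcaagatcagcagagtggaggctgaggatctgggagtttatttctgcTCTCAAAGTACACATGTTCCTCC
Igkv1-117: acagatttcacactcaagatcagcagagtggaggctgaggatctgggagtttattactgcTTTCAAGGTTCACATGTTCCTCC
Igkv10-96: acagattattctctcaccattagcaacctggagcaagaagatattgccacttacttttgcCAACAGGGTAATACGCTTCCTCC
Igkv10-94: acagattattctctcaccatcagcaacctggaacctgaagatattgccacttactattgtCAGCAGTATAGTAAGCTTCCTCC
Igkv6-20 was read from chr6:70335841-70335923 on the minus strand, Igkv6-23 from chr6:70260409-70260491 (minus), Igkv4-70 from chr6:69267888-69267968 (minus), Igkv1-110 from chr6:68271185-68271267 (plus), Igkv1-117 from chr6:68121745-68121827 (plus), Igkv10-96 from chr6:68631963-68632045 (minus) and Igkv10-94 from chr6:68704508-68704590 (minus). Some of these genes are close copies. Over the coding sequence, Igkv1-110 and Igkv1-117 shared 97.2% of bases, Igkv10-96 and Igkv10-94 shared 95.4%, and Igkv6-20 shared 98.6% with Igkv6-29. Only 42.7% of the 90-base windows of Igkv6-20 occur nowhere else among the Igkv genes, against a median of 96.8% for the 71 genes that led in a cell, so counts of near copies are uncertain where the counting could not tell them apart. Igkv6-29 nevertheless had 1 UMI in the plasma cells labelled WT, where Igkv6-20 had 13054.

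Plasma cells were barcodes with at least 2000 UMIs, 500 genes, under 5% mitochondrial UMIs and at least 10 UMIs of Mzb1, Derl3, Txndc5 and Xbp1 together, genes of the secretory machinery. There were 775 labelled WT and 648 labelled Ring1AKO. B cells had at least 5 UMIs of Cd79a, Cd79b and Ms4a1, which encode the B cell receptor signaling chains and CD20, and under 1% of UMIs from Jchain, the joining chain of secreted IgA and IgM. There were 1137 and 3656, and 80 and 107 cells that met both rules were kept apart. The class names were checked against markers that neither rule used. Of the 8 listed plasma cell markers 1 is Jchain, which the B cell rule uses. Of the other 7, 6 were higher in plasma than in B cells in both libraries. Sdc1 (syndecan-1) stood at 197 CPM (UMIs per 1000000 of the class) labelled WT and 161 labelled Ring1AKO against 8.9 in both sets of B cells. The exception was Irf4, at 86.4 and 64.6 CPM in plasma cells and 261 and 260 in B cells. By cells with an Irf4 UMI the order was the opposite, with 75.1% and 69.6% of plasma cells and 56.3% and 55.1% of B cells. Plasma cells had more UMIs per cell. Pax5, the B lineage factor, stood at 302 and 236 CPM in B cells against 2.0 and 3.2 in plasma cells. The summed level of 5 myeloid markers was 385 and 237 CPM in plasma cells and 459 and 251 in B cells, and that of 5 T cell markers ranged from 63.0 to 193. No plasma or B cell barcode was shared between the libraries. Ring1, the targeted gene, had 12.4 CPM (95% Poisson interval 11.0 to 13.9) in WT-labelled plasma cells and 8.81 (7.65 to 10.1) in the Ring1AKO-labelled ones, and 16.7 (13.6 to 20.3) and 16.1 (14.3 to 18.0) in B cells. A 3′ count does not show a disruption further upstream, so the genotype rests on the labels.

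A leading Igkv gene, 1 with over 50% of a cell's Igkv UMIs and at least 3 UMIs in all, was found in most plasma cells. It was called in 646 of 775 plasma cells labelled WT (83.4%, exact Clopper-Pearson 95% interval 80.5 to 85.9) and in 494 of 648 labelled Ring1AKO (76.2%, 72.8 to 79.5). The leading gene held a median of 99.1% and 96.7% of a cell's Igkv UMIs. Intervals here and below cover counting error only, not the difference between mice or libraries. They take each cell as an independent draw, so they are too narrow where cells descend from 1 clone. Most cells without a call had under 3 Igkv UMIs (122 and 131 cells), and in 7 and 23 cells no gene passed 50%. Cells with lambda light chains were among them. In 61 (7.87%) and 49 (7.56%) plasma cells there were more Iglc1 to Iglc3 (lambda constant) than Igkc UMIs, and these were 53 of the 122 and 46 of the 131 cells under 3 Igkv UMIs. Of these lambda cells 8 and 3 had a leading Igkv gene, against 89.4% and 82.0% of the other plasma cells. Among cells with at least 10 Igkv UMIs, a second Igkv gene held 20% or more in 69 of 613 (11.3%, 8.86 to 14.0) labelled WT and in 95 of 389 (24.4%, 20.2 to 29.0) labelled Ring1AKO. A 20% share takes fewer UMIs where a cell holds fewer Igkv UMIs, and the median per plasma cell was 42 labelled WT and 13 labelled Ring1AKO. Doublets were not removed. The part of doublets, of stray UMIs from other cells and of this depth in these shares was not tested.

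The 2 libraries differed in how many variable-gene UMIs they held. A plasma cell labelled WT had a median of 42 Igkv UMIs (quartiles 13 and 85, highest 576) and one labelled Ring1AKO a median of 13 (4 and 24, highest 221), although the median total was 28365 and 35549 UMIs. For each 1000 Igkc UMIs, plasma cells held 6.73 Igkv UMIs labelled WT and 1.37 labelled Ring1AKO, a 4.91-fold difference. Ighv genes over the heavy constant genes differed 5.08-fold the same way in plasma cells, and Trbv over Trbc, the T cell receptor beta genes, 5.42-fold in T cells (24.8 and 4.57 per 1000). Other variable genes differed less. Iglv over the lambda constant genes differed 1.58-fold in plasma cells and Trav over Trac 1.53-fold in T cells, again with the lower ratio labelled Ring1AKO. The lower ratio labelled Ring1AKO was thus seen for T cell receptor genes too, and its part in the level of each Igkv gene was not tested. Shares among called cells are therefore given in place of levels wherever possible.

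**Figure D1:**
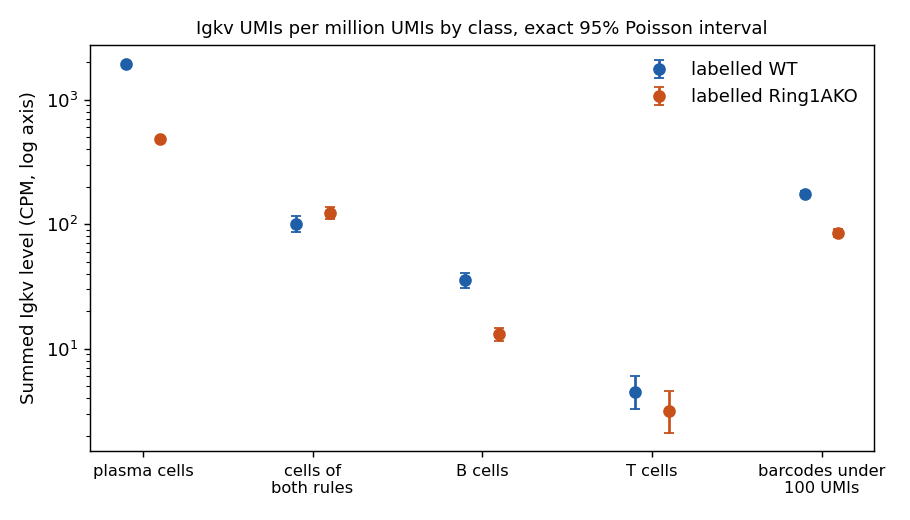
Summed Igkv level (CPM, log axis) in 5 sets of barcodes, with 1 point per library and exact 95% Poisson intervals. Plasma cells had 1951 CPM labelled WT and 483 labelled Ring1AKO, and T cells, which make no kappa chain, 4.51 and 3.16.

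Plasma cells of the 2 libraries differed in their most used Igkv genes. Igkv6-20 led in 120 plasma cells labelled WT and in 1 labelled Ring1AKO. This was 18.6% of called cells (15.6 to 21.8) against 0.202% (0.00512 to 1.12), a difference of -18.4 percentage points and the largest of any Igkv gene. Igkv1-110, the most used gene labelled Ring1AKO, was found at similar shares in both libraries, with 75 cells (11.6%, 9.24 to 14.3) labelled WT and 44 (8.91%, 6.55 to 11.8) labelled Ring1AKO. Its near copy Igkv1-117 led in 54 cells (8.36%, 6.34 to 10.8) and 27 (5.47%, 3.63 to 7.85). The intervals of these 2 genes overlapped between the libraries.

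Of the other genes, Igkv5-39 led in 24 cells labelled WT (3.72%) and 2 labelled Ring1AKO (0.405%), Igkv3-10 in 21 (3.25%) and 2 (0.405%), and Igkv8-24 in 15 (2.32%) and 1 (0.202%). Igkv10-96 led in 54 cells (8.36%, 6.34 to 10.8) and 22 (4.45%, 2.81 to 6.67), and Igkv4-59 in 30 (4.64%) and 10 (2.02%), with overlapping intervals for both. The opposite order was seen for Igkv6-23, which led in 9 cells labelled WT (1.39%, 0.639 to 2.63) and 37 labelled Ring1AKO (7.49%, 5.33 to 10.2). Igkv3-2 led in 6 cells (0.929%) and 27 (5.47%), Igkv4-70 in 1 (0.155%) and 23 (4.66%), and Igkv10-94 in 4 (0.619%) and 20 (4.05%). Igkv4-72, Igkv12-44 and Igkv3-1 each led in 3 cells labelled WT and 18 labelled Ring1AKO. The near copies Igkv10-96 and Igkv10-94 were thus ordered in opposite ways, and together the Igkv10 family held 8.98% and 8.50% of calls.

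Over all 160 genes, the intervals of the 2 libraries were apart for 13 genes, 4 with the higher share labelled WT and 9 with the higher share labelled Ring1AKO. Labelled WT, Igkv6-20 had Ighv6-6 in 107 of the 118 cells that also had a leading Ighv gene, and Igkv5-39 had Ighv1-76 in 22 of 24. Labelled Ring1AKO, Igkv4-70 had Ighv6-6 in 19 of 21, while the 21 cells of Igkv3-2 had 15 Ighv partners. How many genes would stay apart with cells of 1 clone counted once was not tested. Of the 34 genes that led in at least 10 cells over both libraries, 16 had the lower and 18 the higher share labelled Ring1AKO. By family, Igkv6 held 23.8% of calls labelled WT (20.6 to 27.3) and 11.5% labelled Ring1AKO (8.86 to 14.7). This order rests on Igkv6-20, which led in 120 of the 154 Igkv6 cells labelled WT and 1 of the 57 labelled Ring1AKO. The other Igkv6 genes together had the opposite order, with fewer cells labelled WT than labelled Ring1AKO. That order in turn rests on Igkv6-23, which led in 9 cells labelled WT and 37 labelled Ring1AKO. The remaining Igkv6 genes had no common order, with Igkv6-15 in 15 and 8 cells and Igkv6-25 in 0 and 4. Igkv3 held 6.97% (5.13 to 9.21) labelled WT and 12.8% (9.94 to 16.0) labelled Ring1AKO. This order rests on Igkv3-2, with 6 and 27 cells, and Igkv3-1, with 3 and 18. Igkv3-10, with 21 and 2 cells, and Igkv3-5, with 9 and 1, had the opposite order. None of the other Igkv3 genes led in more than 5 cells of a library. Igkv1, with 20.7% and 16.4%, and Igkv4, the family with the most genes, with 13.5% and 18.6%, had overlapping intervals.

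**Figure D2:**
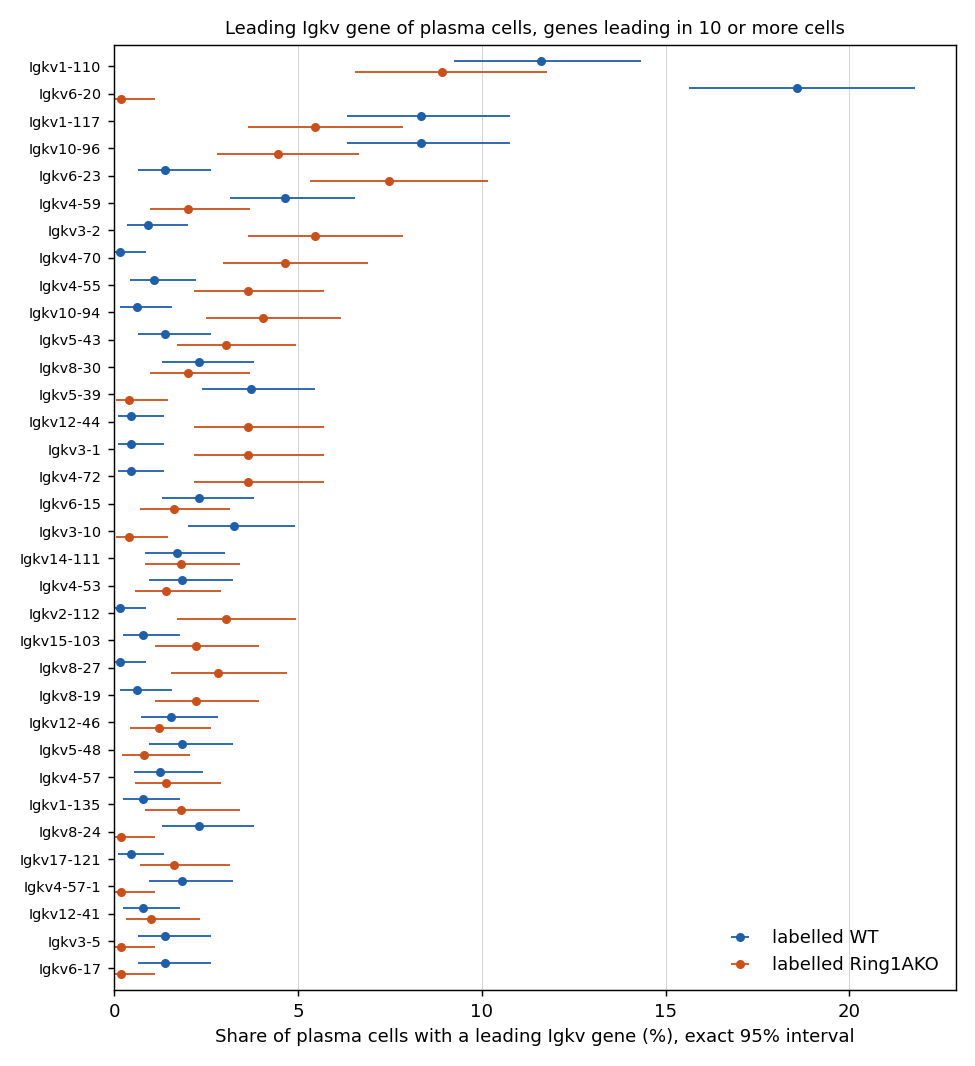
Share of called plasma cells (%) led by each of the 34 Igkv genes that led in at least 10 cells over both libraries, with exact 95% intervals, and genes ordered by the mean share. Igkv6-20 stands apart at 18.6% labelled WT and 0.202% labelled Ring1AKO, and Igkv6-23, Igkv3-2 and Igkv4-70 have the higher share labelled Ring1AKO.

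The use of Igkv genes was less even in the library labelled WT. There, 59 genes led in at least 1 plasma cell, against 62 labelled Ring1AKO. Of the 71 genes that led in either library, 50 led in both. In an equal number of 494 cells, 55.7 genes were expected labelled WT and 62 labelled Ring1AKO. The inverse Simpson diversity, which would equal the number of genes if all were used evenly, was 14.2 labelled WT and 27.8 labelled Ring1AKO. The 10 most used genes held 65.5% of calls (61.7 to 69.1) labelled WT and 51.4% (46.9 to 55.9) labelled Ring1AKO, and 5 and 10 genes were enough to cover 50% of the calls. When at least 10 Igkv UMIs were required for a call, the inverse Simpson diversity was 13.7 and 26.3. Then 59 genes led labelled WT and 57 labelled Ring1AKO, so the order in the raw number of genes turned. In an equal number of cells under this limit, 52.6 genes were expected labelled WT and 57 labelled Ring1AKO, so there the order did not turn. With Igkv UMIs thinned to the same ratio to Igkc in both libraries, the inverse Simpson diversity was 12.3 and 27.8, in the same order.

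**Figure D3:**
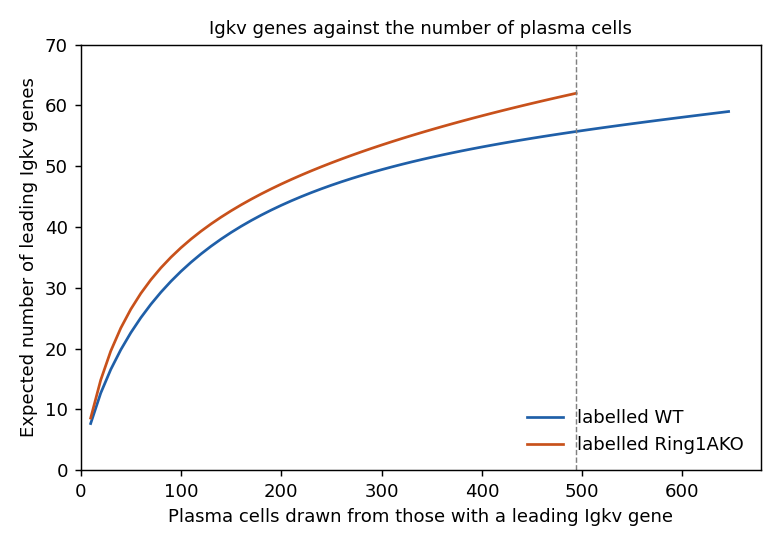
Expected number of leading Igkv genes (y axis) in a random draw of called plasma cells (x axis), with 1 line per library and a dashed line at 494 cells. The line labelled Ring1AKO reaches 62 genes there and the line labelled WT 55.7.

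The order of the libraries in evenness depended on how cells with the same pair of light and heavy chain genes were counted. A leading Ighv (heavy variable) gene, called by the same limits, was found together with a leading Igkv gene in 628 plasma cells labelled WT and 406 labelled Ring1AKO. Cells that share both genes may descend from 1 clone, but the 3′ counts give no junction sequence, so clones were not called. Of the 118 cells led by Igkv6-20 labelled WT that also had a leading Ighv gene, 107 (90.7%, 83.9 to 95.3) had Ighv6-6. This pair made up 17.0% (14.2 to 20.2) of the cells with both genes labelled WT and was found in 0 of 406 labelled Ring1AKO, which allows a share of up to 0.739% by the limit of 3 counts and 0.904% by the exact interval. Without the cells of the most frequent pair of each library, the inverse Simpson diversity of leading Igkv genes was 19.0 labelled WT and 27.2 labelled Ring1AKO. With each pair counted once, whatever its number of cells, the order turned, and it was 40.7 labelled WT and 33.9 labelled Ring1AKO. These pairs came from unequal numbers of cells, 628 and 406. In equal numbers of pairs, 55.9 genes were expected labelled WT and 59 labelled Ring1AKO, so there the order did not turn.

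Other frequent pairs also belonged mostly to 1 library. Ighv1-81 was the first partner of both close copies labelled WT, with 34 cells of Igkv1-110 and 32 of Igkv1-117, against 4 and 3 cells labelled Ring1AKO. Igkv5-39 with Ighv1-76 was found in 22 cells and Igkv4-59 with Ighv10-3 in 17 cells labelled WT and in 0 labelled Ring1AKO. In the library labelled Ring1AKO, Ighv6-6 paired with Igkv4-70 in 19 cells, Ighv1-59 with Igkv6-23 in 17, Ighv1-15 with Igkv2-112 in 14 and Ighv1-26 with Igkv4-72 in 13, and none of these 4 pairs was found in cells labelled WT. In all, 212 pairs were seen labelled WT and 177 labelled Ring1AKO, and 34 were seen in both, which is 16.0% and 19.2% of the pairs of each. Most of these pairs, 130 and 113, were seen in 1 cell only. What overlap such sparse sampling would give was not tested. Pairs of at least 5 cells numbered 23 labelled WT, with 56.4% of the cells (52.4 to 60.3), and 22 labelled Ring1AKO, with 45.6% (40.6 to 50.6). Igkv8-30 with Ighv3-6 was the only pair of at least 5 cells in both libraries, with 6 cells labelled WT and 7 labelled Ring1AKO. Some genes had many partners. Labelled Ring1AKO, the 29 cells of Igkv1-110 with both genes had 14 Ighv partners and the 21 of Igkv3-2 had 15. The 36 cells of Igkv6-23 had 6 partners, with Ighv1-59 in 17 cells, Ighv1-9 in 10 and Ighv1-39 in 5.

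**Figure D4:**
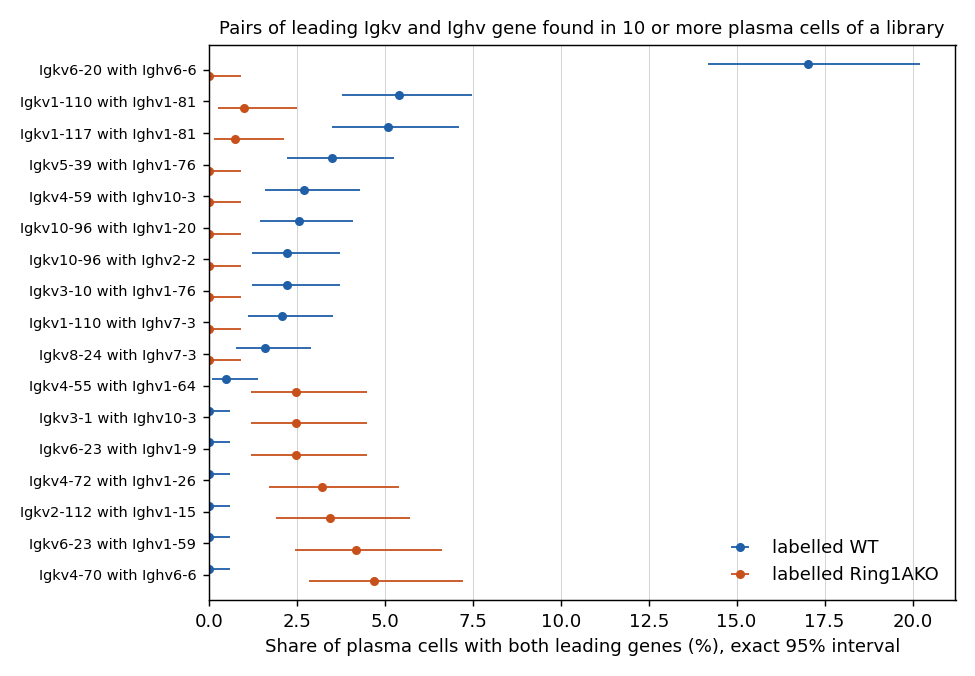
Share (%) of the plasma cells with both a leading Igkv and a leading Ighv gene that carry each pair, for the 17 pairs with at least 10 cells in a library, with exact 95% intervals. Igkv6-20 with Ighv6-6 is at 17.0% labelled WT, and the other pairs lie at or below 5.41%.

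IgA plasma cells made up nearly all of both sets, and the difference in use was seen within them. Igha held over 50% of the heavy constant UMIs in 739 of 775 plasma cells labelled WT and 600 of 648 labelled Ring1AKO. Among the 614 and 462 of these with a call, the inverse Simpson diversity was 13.9 and 27.2, and Igkv6-20 led in 117 cells labelled WT. The called cells of other isotypes numbered 32 in each library. Of the 11 Ighg1 (IgG1) cells labelled WT, 7 were led by Igkv10-96, while the 16 called Ighg1 cells labelled Ring1AKO had 12 leading genes, none in more than 2 cells.

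B cells held too few Igkv UMIs for a call in single cells. A leading gene was called in 3 of 1137 B cells labelled WT (0.264%, 0.0544 to 0.769), 1 cell each of Igkv1-110, Igkv19-93 and Igkv3-12, and in 0 of 3656 labelled Ring1AKO, which allows a share of up to 0.0821% by the limit of 3 counts and 0.101% by the exact interval. At least 1 Igkv UMI was found in 17.1% of B cells (14.9 to 19.4) labelled WT and 6.54% (5.76 to 7.39) labelled Ring1AKO, at median totals of 4274 and 4416 UMIs. In T cells, which should lack Igkv transcripts, the share was 2.97% and 2.02% at medians of 5708 and 5594 UMIs. With every cell thinned to 2000 UMIs, the shares were 7.30% and 2.87% in B cells and 1.06% and 0.674% in T cells. B cells were thus above the T cell background in both libraries, at a summed level of 35.5 CPM (31.0 to 40.6) labelled WT and 13.0 (11.4 to 14.7) labelled Ring1AKO. The ratio of Igkv to Igkc UMIs was 3.36-fold lower in B cells labelled Ring1AKO.

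Use in B cells was therefore described by shares of the summed Igkv UMIs, 219 labelled WT and 249 labelled Ring1AKO. It was spread over many genes in both libraries. UMIs were found for 54 and 59 genes, with an inverse Simpson diversity over UMIs of 27.3 and 28.1. In 219 UMIs, 54 genes were found labelled WT and 57.1 were expected labelled Ring1AKO, against 41.4 and 45.9 in the cell-free barcodes. The 3 genes with most UMIs were among the most used in plasma cells. Igkv1-110 held 9.59% (6.03 to 14.3) labelled WT and 10.4% (6.94 to 14.9) labelled Ring1AKO, Igkv1-117 held 8.68% and 9.64%, and Igkv10-96 held 8.68% and 6.83%. Igkv6-20 had 10 UMIs labelled WT (4.57%, 2.21 to 8.24) and 4 labelled Ring1AKO (1.61%, 0.439 to 4.06). At the level of the T cells, where it had 11 and 0 UMIs, the B cells would hold 6.64 Igkv6-20 UMIs labelled WT and 0 labelled Ring1AKO, so its use in B cells labelled WT cannot be told from background. Over all Igkv genes, the T cell level would give 27.8 of the 219 and 60.6 of the 249 UMIs. Of the genes with the largest differences between the libraries among those with at least 10 UMIs, Igkv9-120 had 9 and 3 UMIs, Igkv6-15 had 8 and 4, and Igkv3-4 had 3 and 7. The intervals overlapped for each of these genes, so no difference in their shares could be read at this depth.

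By summed UMIs, Igkv6-20 was also the gene that differed most between plasma and B cells. It held 28.3% of all plasma cell Igkv UMIs labelled WT, and the mean share over both libraries was 11.2 percentage points higher in plasma than in B cells. This rests on the library labelled WT, since labelled Ring1AKO it held 0.23% of the UMIs of plasma cells and 1.61% of those of B cells. The next were Igkv3-1 with 3.51 points, Igkv3-2 with 2.65, Igkv3-10 with 2.01 and Igkv4-70 with 1.62. The plasma cells led by each of these genes also lay mostly in 1 library. Igkv3-1 led in 3 labelled WT and 18 labelled Ring1AKO, Igkv3-2 in 6 and 27, Igkv3-10 in 21 and 2, and Igkv4-70 in 1 and 23. Higher shares in B cells were found for Igkv19-93 (8 and 10 B cell UMIs, a difference of -3.49 points), Igkv10-96 (-2.63), Igkv12-89 (-2.31), Igkv9-120 (-2.11) and Igkv4-51 (-1.63). Igkv12-89 had 6 and 5 UMIs in B cells, and in plasma cells 0 labelled WT and 15 labelled Ring1AKO. Igkv4-51 had 1 and 7 UMIs in B cells and 0 in all plasma cells of either library. These sums rest on few UMIs in B cells, and 1 plasma cell labelled WT, with 576 Igkv UMIs, held more than all B cells of that library.

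Igkv6-20 was also the most frequent Igkv gene in the cell-free barcodes and in the T cells labelled WT. In barcodes under 100 UMIs, taken as cell-free, Igkv6-20 held 438 of 1720 Igkv UMIs labelled WT and 24 of 748 labelled Ring1AKO. In the T cells labelled WT it held 11 of 46. Of the 24 cell-free Igkv6-20 UMIs labelled Ring1AKO, 16 (66.7%, 44.7 to 84.4) lay in barcodes that are plasma cells of the library labelled WT, while these barcodes held 0.397% of all cell-free UMIs of the library labelled Ring1AKO. For all Igkv genes the share in these barcodes was 27 of 748 (3.61%). In the opposite direction, plasma cell barcodes of the library labelled Ring1AKO held 0 of the 438 cell-free Igkv6-20 UMIs labelled WT, 5 of the 1720 Igkv UMIs (0.291%) and 0.286% of all cell-free UMIs. The cause was not tested. No barcode was a plasma cell in both libraries.

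Leading genes were found along the whole locus, with the fewest calls in its middle. The 54 genes nearest to Igkc, at 22.3 to 1077 kb, held 50% of calls labelled WT (46.1 to 53.9) and 44.7% (40.3 to 49.2) labelled Ring1AKO. The 53 genes of the middle part held 13.0% (10.5 to 15.8) and 18.4% (15.1 to 22.1), and the 53 farthest genes, from 2013 kb on, held 37.0% and 36.8%. Igkv genes on the plus strand, like Igkc, join by deletion and those on the minus strand by inversion. The minus strand genes made up 85 of the 160 genes and held 63.2% (59.3 to 66.9) and 59.1% (54.6 to 63.5) of calls. As 60 of the 160 genes are pseudogenes with almost no calls, these shares do not show a preference for a strand. The same holds for the parts of the locus, since the nearest part has the fewest pseudogenes. Igkv6-20 alone led in 120 of the 408 minus strand cells labelled WT. These 120 cells also count among the 323 of the nearest part. The 60 annotated pseudogenes led in 1 cell of each library, in both cases Igkv3-11. Igkv3-1 and Igkv3-2, the genes closest to Igkc at 22.3 and 27.4 kb, were among those with the higher share labelled Ring1AKO, and Igkv6-20 lay at 389.9 kb.

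**Figure D5:**
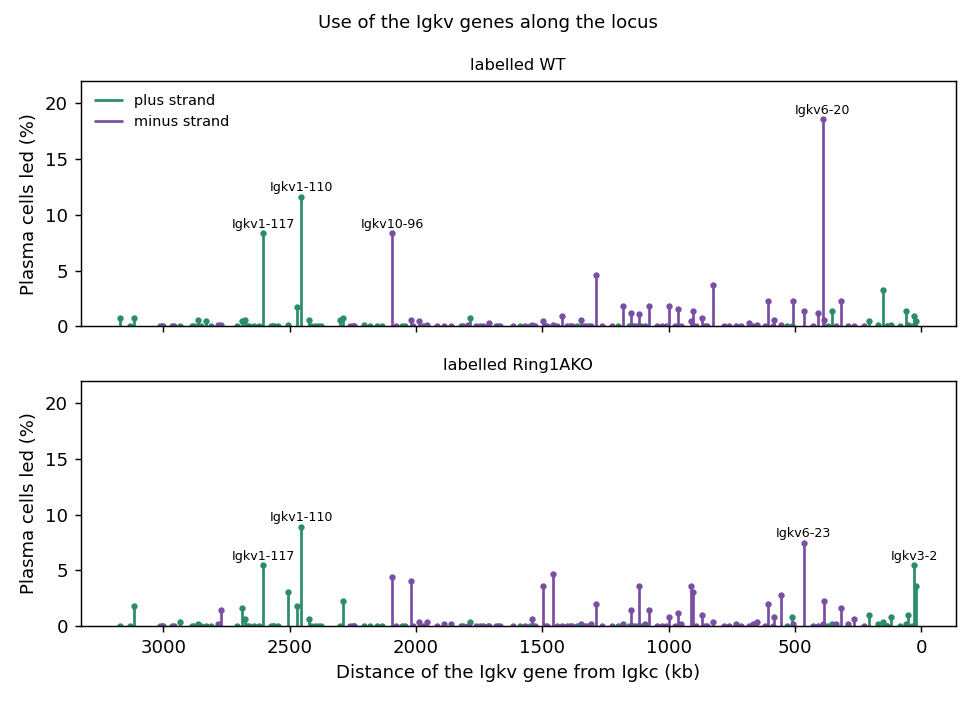
Share of called plasma cells (%) led by each Igkv gene against its distance from Igkc in kb, with the library labelled WT above and that labelled Ring1AKO below, and colors for the strand. Genes at 5% or more are named, and Igkv1-110 and Igkv1-117 are high in both libraries at 2455 and 2605 kb.

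Levels of single Igkv genes in plasma cells were mostly lower labelled Ring1AKO, as were the ratios of variable to constant genes. Of the 9446 genes that reached 100 UMIs when both libraries were added, 11.1% lay past 2-fold, and 0.73% were over 2-fold higher in plasma cells labelled Ring1AKO and 10.3% over 2-fold lower, with 1 UMI added to each sum. Of the 160 Igkv genes, 51 reached 100 UMIs, of which 6 were higher and 31 lower. Their median log2 ratio was -1.68, against -0.40 for all genes tested. A gene that reached the limit through 1 library only had to differ, so these counts are a description. No Igkv gene reached 100 UMIs in B cells, where 3.8% of 9033 genes lay past 2-fold, 0.542% higher and 3.25% lower labelled Ring1AKO.

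Genes that act with the kappa locus mostly lay within 2-fold, as did all genes tested. Of a list of 22 genes for light chain constant regions, recombination, kappa enhancer factors and the plasma cell program, 18 were tested in each class. In plasma cells 1 was over 2-fold higher and 2 lower labelled Ring1AKO, all lambda constant genes, and in B cells there were 0 of either kind. Over all genes tested, 11.1% lay past 2-fold in plasma cells and 3.8% in B cells. With 18 genes tested, these counts do not set the list apart from all genes. The list includes Xbp1 and Mzb1, which the plasma cell rule uses, and Jchain, which the B cell rule limits. Levels of these genes in those classes are partly set by the rules. The median log2 ratio in plasma cells was -0.43 for the list and -0.40 for all genes. Iglc1 had 12440 CPM labelled WT and 34955 labelled Ring1AKO in plasma cells, Iglc2 had 7153 and 2610, and Iglc3 had 7487 and 628. Igkc stood at 289858 and 352170 CPM in plasma cells and 6057 and 7434 in B cells. Pou2af1, the coactivator of octamer factors at immunoglobulin promoters, had 198 and 196 CPM in plasma cells, and Xbp1 and Prdm1, which drive the plasma cell program, had 1509 and 1087 and 94.8 and 63.5. Irf4, which binds the 3′ kappa enhancer with Spi-B or PU.1, had 86.4 and 64.6 CPM. Rag1 and Rag2, the recombinase genes, had 0 UMIs in plasma and B cells of both libraries.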

How the data were processed

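Live CD45+ colonic lamina propria cells of 5 pooled DSS-treated mice per group were sequenced by the authors as 1 library per group with 10× Genomics 3′ chemistry. The deposited matrices hold the authors' UMI counts of every gene in all barcodes, neither filtered nor normalized. The study's methods name Cell Ranger 3.0.1 with mm10, the submitters' processing notes name Cell Ranger 6.0.2, Seurat and mm39, and the matrix headers name version 4, so the build of the counts is not settled and the coordinates given are those of GENCODE vM21 on GRCm38, matched by gene identifier. Samples were grouped by their titles.

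The counts were analysed with Python 3.11.15, numpy 2.4.6, pandas 2.3.3, scipy 1.17.1 and Biopython 1.88. Cells were classed and leading genes called by the limits given with the results. Cells meeting both class rules were left out of both. T cells, used as a background, had at least 3 UMIs of Cd3d, Cd3e and Cd3g, none of the B cell genes and did not meet the plasma rule. Doublets were kept, and no doublet caller was run. Levels are summed UMIs per 1000000 UMIs of the class (CPM), with exact 95% Poisson intervals, and shares have exact 95% Clopper-Pearson intervals. A level was compared where both libraries together had at least 100 UMIs, as a fold with 1 UMI added to each sum. No p-value was computed, since each group had 1 library.

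The genes named were the 8 most used per class, among genes of at least 10 calls (or UMIs, in B cells) the 4 highest and 4 lowest differences in share, Ring1AKO minus WT, the 5 largest and 5 smallest differences between plasma and B cells, and a list of 22 kappa-related genes, of which 1 is not reported here. Other genes, the pairs and the isotypes were chosen after their values were seen, and the members and lists were chosen with earlier results of these data known. As B cells had 3 calls in all, their use was measured by shares of summed Igkv UMIs in place of calls, and the equal number of cells was set from the plasma cells. The calling and the fold limit were tested on simulated data. Each simulated cell had 1 true Igkv gene and few stray UMIs, so cells with a second Igkv gene and near copies were not covered. Alternatives to the calling limits, class rules, depth and unit were tried, and 3 were added after the data were seen.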

Additional observations from a re-analysis of the deposited data

Results flagged for a closer look

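Signals were found in barcodes that the comparisons of plasma and B cells do not use. Barcodes under 100 UMIs, taken as cell-free, had a summed Igkv level of 176 CPM (168 to 185) labelled WT and 84.9 CPM (79.0 to 91.2) labelled Ring1AKO. These levels were above those of the T cells, at 4.51 and 3.16 CPM, and above those of the B cells, at 35.5 and 13.0 CPM. Cells that met both the plasma and the B cell rule had a leading Igkv gene in 12 of 80 cells labelled WT (15.0%, 8.00 to 24.7) and in 15 of 107 labelled Ring1AKO (14.0%, 8.06 to 22.1), against 0 of 1516 and 0 of 1335 T cells. Their median totals were 16423 and 17914 UMIs, between those of B cells and plasma cells.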

How the results depend on the processing

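No paired analysis was possible because each group had 1 library, and for the same reason no replicate could be left out. Of 184 summary values under alternatives, 147 stayed within the spread allowed and 37 moved further. The spread was the counting interval of a share, or a fixed fold for numbers of genes and inverse Simpson diversity. Counting cells of both rules as B cells leaves the plasma cells unchanged, so the plasma cell values of that alternative could not move. The share of plasma cells with a leading Igkv gene was 78.5% labelled WT and 56.6% labelled Ring1AKO with at least 10 Igkv UMIs for a call, 72.5% and 58.8% with a leading gene over 80%, 88.5% and 82.1% with at least 30 UMIs of the plasma genes, and 77.0% and 67.4% with cells of both rules counted as plasma cells. It was 48.8% and 8.18% with cells thinned to 2000 UMIs. Labelled WT it was 88.1% with Jchain at least 1% of UMIs and 70.2% with Igkv UMIs thinned to an equal ratio to Igkc. The share of B cells with a call labelled WT was 0% with at least 10 Igkv UMIs and 0% with cells thinned to 2000 UMIs. With cells of both rules counted as B cells it was 1.23% labelled WT and 0.399% labelled Ring1AKO.

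With cells thinned to 2000 UMIs, 49 genes led labelled WT and 27 labelled Ring1AKO, 20.9 and 27 genes were expected in equal numbers of cells, the most used gene held 24.9% labelled WT, and the 10 most used held 71.7% and 62.3%. With a leading gene over 80%, 56 and 54 genes led, and with at least 10 Igkv UMIs 59 and 57. The order in the raw number of genes thus turned under these 3 alternatives. In equal numbers of cells, 51.2 and 54 genes were expected with the 80% limit and 52.6 and 57 with the limit of 10 UMIs. At equal numbers the order turned under none of the 3. With each Ighv and Igkv pair counted once, the inverse Simpson diversity labelled WT was 40.7, the most used gene held 6.60% and the 10 most used 43.4%. The order of the libraries in inverse Simpson diversity turned, while that in expected genes did not, as given above. Without the most frequent pair, the most used gene labelled WT held 13.9% and the 10 most used 58.6%. With families in place of genes, 16 and 17 families led, 16.0 and 17 were expected in equal numbers of cells, the inverse Simpson diversity was 7.03 and 8.90, the most used family held 23.8% and 18.6%, and the 10 most used 95.2% and 92.5%. The alternatives with Jchain, the equal ratio and the pair left out were chosen after the data were seen. A share of called cells has no value with each pair counted once. Of 140 values of single named genes, 23 moved. These values cover only the plasma cell genes named for the highest use or the largest differences in share. Among these genes, none whose intervals were apart between the libraries changed direction, but the sizes of the differences did change. With each pair counted once, Igkv6-20 had 7 of the 212 pairs labelled WT and 1 of the 177 labelled Ring1AKO. Igkv5-39 then had 3 and 2 pairs, Igkv4-70 had 1 and 3, and Igkv10-94 had 1 and 2. Igkv6-23 had 2 and 6, and Igkv3-2 had 2 and 15. The other genes with intervals apart were not tried under the alternatives. The B cell shares rest on 219 and 249 UMIs, of which 27.8 and 60.6 would be background at the T cell level.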

Other observations

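Plasma cells without a leading Igkv gene differed from the others in more than their Igkv UMIs. The 129 uncalled cells labelled WT had a median of 49 Igkc UMIs against 9026 in called cells, and the 154 labelled Ring1AKO had a median of 1263 against 14716. These medians include the 53 and 46 uncalled cells with more lambda constant than Igkc UMIs. Their median totals were 21389 and 22937 UMIs, against 29118 and 37519 in called cells. Jchain was under 1% of UMIs in 45 and 28 of all plasma cells. Labelled WT, the share of cells with a call was higher with these cells left out, as given above. Whether all uncalled cells were plasma cells was not tested.

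The light chain genes of cells also differed in how many Igkv UMIs they gave for the same Igkc. Labelled WT, cells led by Igkv12-44 had a median of 19.0 Igkv UMIs per 1000 Igkc UMIs (3 cells), those led by Igkv6-20 had 6.40 (120 cells) and those led by Igkv5-39 had 2.57 (24 cells). Labelled Ring1AKO, the median was 1.71 for Igkv12-44 (18 cells), 1.63 for Igkv1-110 (44 cells) and 0.79 for Igkv4-59 (10 cells), the gene with 2.95 labelled WT (30 cells). A fixed limit on Igkv UMIs therefore passes cells of different genes at different Igkc levels.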
